A study of Mus musculus with 12 samples.

Results

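The comparison is between livers of Cyp1b1 null and wild-type male mice that were both fed a high-fat diet. Its members are 6 of the 12 two-colour Agilent arrays in all, 3 of high-fat livers labelled Cyp1b1 null and 3 of high-fat livers labelled C57BL6/J wild-type, and they were chosen by these labels alone. Every mouse was moved at weaning, at 3 weeks, to food with 60% of fat, and was killed at 14 weeks. The other 6 arrays hold both genotypes at 10% of fat, and they enter the fit and are set beside the high-fat values. On each array the liver sample was in Cy3 and pooled RNA of wild-type livers at low fat was in Cy5, so a value of 0 on the log2 scale is the level of that pool. No dyes were swapped. Each array is described as 3 pooled samples, and nothing says whether the replicates were pools of separate animals, so a p-value reflects only the spread of these arrays, which may be technical. The labels do not give the background strain of the null mice or how the gene was disrupted.

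Cyp1b1 encodes a cytochrome P450 that oxidises oestrogens, retinoids, fatty acids and aromatic hydrocarbons, and in mice it is made mainly outside the hepatocyte. The liver takes up and makes fatty acids under the control of nuclear receptors. PPARalpha, active in fasting and fat feeding, drives fatty acid oxidation and the Cyp4a hydroxylases, and PPARgamma is low in normal liver and drives lipid storage genes in fatty liver. Many mouse liver genes also differ between the sexes, under the pulsed or continuous release of growth hormone, which acts through STAT5B.

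Over the 6 high-fat arrays, 20983 to 22806 of 41174 probes were well above background in the sample channel, and 14919 genes were tested. Of 9 measured hepatocyte markers, all 9 were well above background on all 6 arrays. Log ratios of the 6 arrays correlated with each other at 0.49 to 0.87 across genes, which are not independent replicates. The arrays lay on 3 slides, which for these 6 arrays were also the 3 scan days. Slide 1 held wild-type array 1 and null arrays 1 and 3, slide 2 held wild-type array 2 and null array 2, and slide 3 held wild-type array 3 alone. Over all 12 arrays, those of 1 slide deviated together from the means of their groups. The median r between arrays of different groups was 0.46 within a slide and -0.098 between slides. Between null and wild-type high-fat arrays of 1 slide, r was -0.023 and 0.69 on slide 1 and 0.57 on slide 2. Values within slides 1 and 2 are therefore given beside some of the results. Where they are not given, the slides can still differ. In what follows, a difference is null minus wild-type at high fat on the log2 scale, from the limma fit of all 12 arrays, with p adjusted by Benjamini-Hochberg over the genes tested and called under 0.05. Array values are given in the order of replicates 1, 2 and 3, which have no order among themselves.

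The first question was which genes differed between null and wild-type livers after fat feeding. Of 14919 genes, 2 passed the threshold, which is 0.0134%, and both were higher in the null livers. They were C8b (A_51_P151214), the beta chain of complement component 8 in the membrane attack complex, and Moxd1 (A_51_P493987), a monooxygenase related to dopamine beta-hydroxylase. None was lower at that threshold in limma, while at an unadjusted p under 0.05 there were 199 lower (1.33%) and 184 higher genes (1.23%). With an adjusted p below 0.10 as the limit, 12 genes (0.0804%) were called, of which 8 were higher and 4 lower. Over all genes tested, 7559 differences (50.7%) were above 0 and 7360 (49.3%) below it, with a median of 0.0026, and 68 genes were higher and 80 lower by more than 1.

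C8b gave log2 ratios of 0.058, 0.062 and 0.078 in wild-type and of 1.47, 1.30 and 1.70 in null high-fat livers. The groups were far apart, and the 3 wild-type values were nearly equal. C8b rose 2.68-fold, a log2 difference of 1.42 (SE 0.14, limma's adjusted p = 0.00675), and it was well above background on all 6 arrays. The difference was 1.53 on slide 1 and 1.23 on slide 2. At low fat it was 1.42 (SE 0.14), so the genotype difference at high fat minus that at low fat was 0.0043 (SE 0.19, adjusted p = 1.00).

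Moxd1 gave log2 ratios of -0.021, -0.0017 and -0.14 on the wild-type arrays and of 3.07, 3.81 and 3.22 on the null arrays. Every null array was above every wild-type array, and the wild-type values lay at the level of the reference pool. Moxd1 rose by 3.42 (SE 0.42, limma's adjusted p = 0.0353), or 10.7-fold. All 3 null arrays but only 1 of the 3 wild-type arrays read it well above background, so the fold rests on wild-type values near background. The difference was 3.17 on slide 1, 3.81 on slide 2 and 3.39 (SE 0.42) at low fat.

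Neither call held when 1 array of wild-type high-fat liver was left out, with an adjusted p in limma of 0.0751, 0.0768 and 0.0822 for C8b and of 0.154, 0.214 and 0.288 for Moxd1 without arrays 1, 2 and 3. Without null high-fat array 1 or 3 they were also lost (0.0555 and 0.0507 for C8b, 0.0991 and 0.197 for Moxd1), and without null array 2 only C8b passed, with 0.0134 against 0.119 for Moxd1. Moxd1 was lost too without wild-type low-fat array 1 (0.0509) or null low-fat array 2 (0.0976), arrays that enter only the estimate of the spread.

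The sequences below show what was measured and what lies at the start of both genes that passed. The array's probes are 60 bases long, and their first 30 bases, 5′ to 3′, are given for these genes and for Cyp1b1.
C8b probe: caaggtcttggagccaaaaactctcttggt
Moxd1 probe: cactcagtgctaccctctgggtcgatctga
Cyp1b1 probe: actacattaagcagatagatcaccatgtat

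The promoter windows run from 250 bases before to 50 bases after the start of each gene, in RefSeq on build GRCm38.p6. They were searched on both strands for TTCNNNGAA, the palindrome to which STAT proteins such as STAT5B bind, since the genes are members of the male-biased list described below. The C8b window is chr4:104766067-104766366 and the Moxd1 window chr10:24223267-24223566, both on the plus strand, with a match in capitals.
C8b promoter: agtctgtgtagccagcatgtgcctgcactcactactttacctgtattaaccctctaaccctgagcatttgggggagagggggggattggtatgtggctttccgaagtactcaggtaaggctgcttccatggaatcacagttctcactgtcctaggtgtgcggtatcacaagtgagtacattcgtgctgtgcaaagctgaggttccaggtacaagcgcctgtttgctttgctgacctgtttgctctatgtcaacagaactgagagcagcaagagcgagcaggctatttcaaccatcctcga
Moxd1 promoter: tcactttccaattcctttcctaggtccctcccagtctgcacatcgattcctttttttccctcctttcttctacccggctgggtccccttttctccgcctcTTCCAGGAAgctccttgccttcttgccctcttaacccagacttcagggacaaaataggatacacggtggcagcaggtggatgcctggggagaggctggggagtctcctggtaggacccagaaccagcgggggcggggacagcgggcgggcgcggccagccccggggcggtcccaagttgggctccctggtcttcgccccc
The Moxd1 window held 1 match, which begins 150 bases before the start of the gene, and the C8b window held none. Of all 32851 promoter windows of the same length, 8.3% held the motif, and of 42 named genes with a window 4 held it. A match is a description of the letters and not a binding site.

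**Figure D1:**
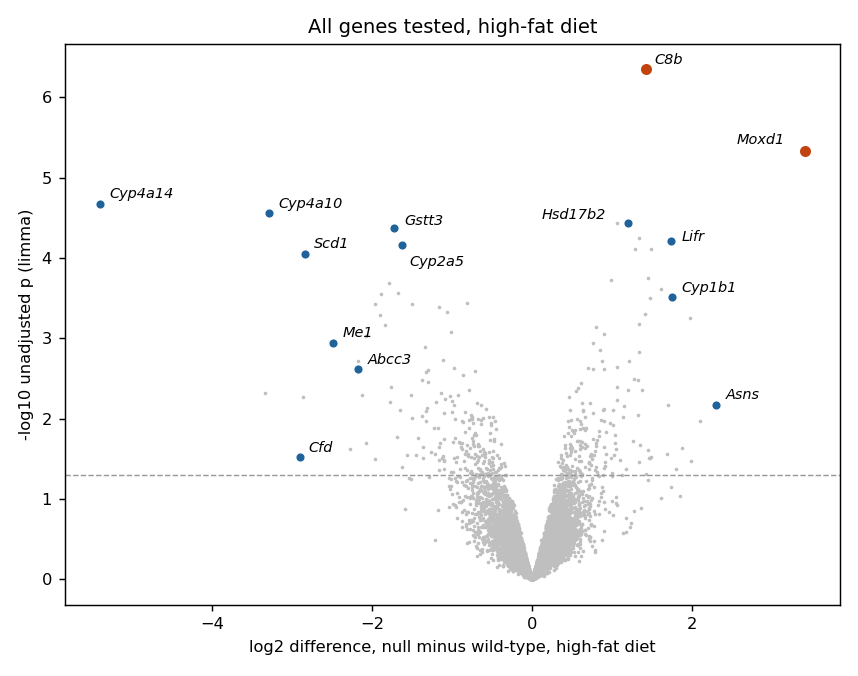
Difference of each of 14919 genes between null and wild-type high-fat livers (x axis, log2) against the negative log10 of limma's unadjusted p (y axis); the dashed line is an unadjusted p of 0.05. The 2 genes past the adjusted threshold, C8b and Moxd1, are in orange, and the other labelled genes, in blue, did not pass.

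The targeted gene was read by a probe (A_51_P255456) that was brighter on the arrays labelled null. Its log2 ratios were -0.69, -0.13 and -0.88 in wild-type and 0.65, 1.68 and 1.23 in null high-fat livers. The groups did not overlap, with a difference of 1.75 (SE 0.34, adjusted p = 0.223), and Agilent's processed signals, background-subtracted by the scanner software, gave 4.58 (adjusted p = 0.0306). Its second probe, A_52_P297822, exceeded background clearly on 1 of the 6 high-fat arrays, null array 3. The sources used here do not place either probe inside or outside the disrupted part, so the signals check nothing about the labels, and null means labelled null. Nnt, a mitochondrial transhydrogenase in which the C57BL/6J strain carries a deletion, gave -0.18, -0.028 and -0.10 in wild-type and 0.56, 0.85 and 0.67 in null high-fat livers. Its groups did not overlap either, with a difference of 0.80 (SE 0.17, adjusted p = 0.333) at high fat and 0.25 (SE 0.17) at low fat. Of its other probes, 1 gave 0.75 and 1 gave -0.11, and what the strain of the null mice contributes to any difference here was not tested.

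After C8b and Moxd1, the higher genes with the smallest p were Hsd17b2, a feature that the files call NAP092468-001 and Selenbp1. NAP092468-001, which was named after its values had been seen and has no gene symbol here, differed by 1.07 (SE 0.16, adjusted p = 0.0913). None of the genes in this and the next paragraph passed the threshold, and their 3 null arrays lay beyond the 3 wild-type arrays by the rule that chose them, which 1156 of all genes did (7.75%, with 3.69% higher and 4.06% lower). Hsd17b2, which oxidises oestradiol and testosterone to weaker steroids, had log2 ratios of 1.17, 0.86 and 0.72 in wild-type and 2.17, 1.77 and 2.43 in null livers, a difference of 1.21 (SE 0.18, adjusted p = 0.0913). Selenbp1, a selenium-binding protein that oxidises methanethiol, had 1.08, 0.70 and 0.89 in wild-type and 2.33, 2.07 and 2.30 in null livers, a difference of 1.35 (SE 0.21, adjusted p = 0.0963). For both genes the null arrays lay well above the reference pool and every wild-type array below all of them. Nudt7, a peroxisomal hydrolase of coenzyme A, had 0.57, 0.46 and 0.63 in wild-type and 1.88, 1.41 and 2.25 in null livers, a difference of 1.29 (SE 0.21, adjusted p = 0.0963), with 1.49 on slide 1 and 0.94 on slide 2. Cyp2c70, the enzyme that makes muricholic acids in mice, differed by 1.45 (SE 0.26, adjusted p = 0.186). F11, coagulation factor XI, differed by 0.99 (SE 0.18, adjusted p = 0.186). Lifr, the receptor of leukaemia inhibitory factor, differed by 1.74 (SE 0.28, adjusted p = 0.0963) at its brightest probe and by 0.27 to 0.85 at its other 4. Fam160b1 differed by 1.49 (SE 0.25, adjusted p = 0.0963) at its brightest probe and by 0.066 to 0.32 at its other 3. Nucb2, the precursor of nesfatin, had -0.92, -0.61 and -0.57 in wild-type and 0.59, 1.20 and 0.95 in null livers, all null arrays being above the reference pool and all wild-type arrays below it. Serpina11 differed by 1.48 (SE 0.29, adjusted p = 0.223).

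On the lower side the largest difference of all genes belonged to Cyp4a14, a fatty acid omega-hydroxylase under PPARalpha. Its log2 ratios were 0.54, -0.77 and 0.38 in wild-type and -4.65, -5.40 and -6.01 in null high-fat livers, a difference of -5.41 (SE 0.77, adjusted p = 0.0913), or 42.4-fold lower. Its relative Cyp4a10 had 0.71, 0.90 and 1.13 in wild-type and -1.91, -2.14 and -3.08 in null livers, a difference of -3.29 (SE 0.48, adjusted p = 0.0913). The wild-type livers lay above the reference pool for Cyp4a10 and between -0.77 and 0.54 for Cyp4a14. The null livers lay far below the pool on every array for both genes. The other 3 Cyp4a10 probes gave -1.99, -1.86 and -0.089, and probes of this family can read more than 1 member. Gstt3, a theta-class glutathione transferase, had 1.41, 0.96 and 0.85 in wild-type and -0.45, -1.08 and -0.43 in null livers, a difference of -1.73 (SE 0.27, adjusted p = 0.0913). Cyp2a5, the coumarin hydroxylase, had 0.39, 1.38 and 0.85 in wild-type and -0.70, -0.65 and -0.93 in null livers, a difference of -1.63 (SE 0.26, adjusted p = 0.0963). In both genes the wild-type high-fat arrays were above the pool and the null arrays below it. Scd1, the stearoyl-CoA desaturase that makes monounsaturated fatty acids, had -1.51, -2.20 and -2.41 in wild-type and -5.82, -4.06 and -4.78 in null livers. Both groups were thus below the low-fat pool, and the null livers were lower again, with a difference of -2.85 (SE 0.48, adjusted p = 0.102), with -3.79 on slide 1 and -1.86 on slide 2. Acot1, a cytosolic acyl-CoA thioesterase, had 1.14, 0.75 and 1.05 in wild-type and -0.79, -0.90 and -1.05 in null livers, a difference of -1.89 (SE 0.36, adjusted p = 0.223). Pparg, the receptor PPARgamma itself, had -0.40, -0.61 and -0.25 in wild-type and -1.36, -2.03 and -2.37 in null livers, a difference of -1.50 (SE 0.30, adjusted p = 0.233). Lgals1, galectin-1, differed by -1.97 (SE 0.39, adjusted p = 0.233), Serpinb1a, an inhibitor of neutrophil elastase, by -1.79 (SE 0.33, adjusted p = 0.194) and Dop1b by -1.16 (SE 0.23, adjusted p = 0.244). Tmem106b, a lysosomal membrane protein, differed by -0.82 (SE 0.16, adjusted p = 0.233), and its other probes gave -0.43 and -0.25.

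**Figure D2:**
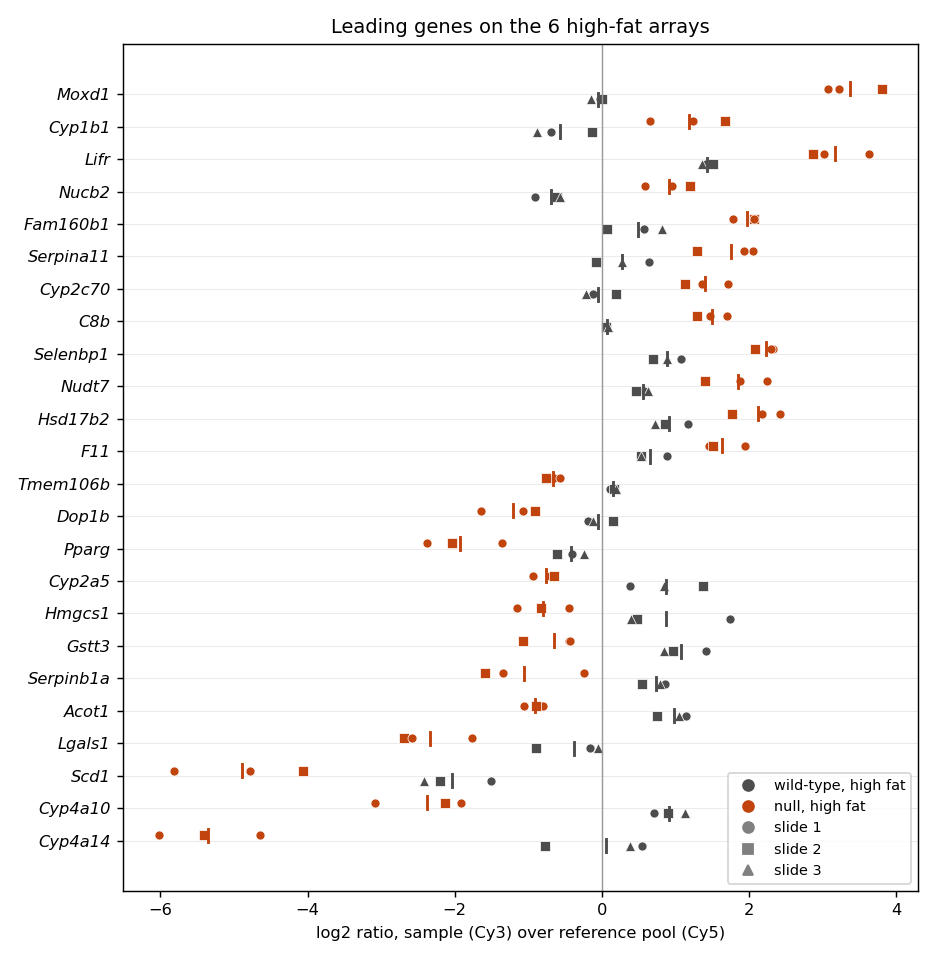
Log2 ratio of sample over reference pool (x axis) of Cyp1b1, of both genes that passed and of the genes with the smallest p on each side, on the 3 wild-type (grey) and 3 null (orange) high-fat arrays; vertical ticks are group means and the symbol gives the slide. The genes were chosen for groups that do not overlap, and a reader should see that Cyp4a14 lay between -6.01 and -4.65 on the null arrays and Moxd1 between 3.07 and 3.81.

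Genes whose RNA differs between male and female mouse liver were described next, as lists chosen with earlier results of these data known. They are therefore no independent evidence of a direction, and C8b and Moxd1 belong to the male-biased list. Of 32 male-biased genes 25 were measured, 24 of them above 0 and 1 below, with a median difference of 0.73, and 23 of the 25 were well above background on all 6 arrays. The groups did not overlap for 13 of the 24 with a value on all 6 arrays, all higher, beside 3.69% of all genes, and 2 passed the threshold. Of 36 female-biased genes 26 were measured, 24 of them below 0, with a median of -0.69, and 20 of the 26 were well above background on all 6 arrays. Abcd2 was so on 3 wild-type and 0 null arrays, and Cyp2b13 on 3 wild-type and 2 null arrays. Their lower values thus rest in part on null values near background. Of these 26 genes, groups did not overlap for 17 lower genes, beside 4.06% of all genes, and for 1 higher gene, Ntrk2, beside 3.69%. None of the 26 passed the threshold. At an unadjusted p under 0.05 in limma 14 were lower and 1 higher, beside 1.33% and 1.23% of all genes.

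Among male-biased genes the exception below 0 was Mup3 (-0.16), a major urinary protein, and Mup1, of the same family of near-identical genes, differed by 1.88 (SE 0.71). Cyp7b1, an oxysterol hydroxylase of the alternative bile acid pathway, had 1.20, 1.99 and 1.57 in wild-type and 3.63, 3.83 and 3.62 in null high-fat livers, a difference of 2.11 (SE 0.69, adjusted p = 1.00). Egfr, the epidermal growth factor receptor, differed by 1.20 (SE 0.34), Hsd3b5, a steroid dehydrogenase of male liver, by 1.18 (SE 0.99) and Elovl3, a fatty acid elongase, by 0.15. Cyp39a1, an oxysterol hydroxylase of female liver, had 0.23, -0.47 and -0.40 on the wild-type and -1.30, -3.73 and -1.98 on the null arrays, a difference of -2.13 (SE 0.61, adjusted p = 1.00). Cyp2b9, a female-biased P450 that is also induced through CAR, had -1.03, -0.86 and 0.024 on the wild-type and -1.94, -4.15 and -4.37 on the null arrays, a difference of -2.86 (SE 0.83, adjusted p = 1.00), and its other probe gave -0.86. In the last 2 genes null array 1 lay nearer to the wild-type arrays than null arrays 2 and 3 did. Cyp17a1, a steroid hydroxylase, differed by -0.85, Prlr, the prolactin receptor, by -0.52, Cyp2a4, a steroid hydroxylase nearly identical to Cyp2a5, by -1.49 and Ntrk2, a neurotrophin receptor, by 1.70. Acot4, an acyl-CoA thioesterase, differed by -1.11 (SE 0.27, adjusted p = 0.659), and by -0.68 at its other probe. None of the genes of these lists other than C8b and Moxd1 passed the threshold.

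The male-biased median was 0.53 on slide 1 and 0.84 on slide 2, and the female-biased median -0.60 and -0.84. The list medians of the log2 ratios were 0.54 to 0.64 on the wild-type and 1.26 to 1.58 on the null arrays for male-biased genes. For female-biased genes they were -0.032 to 0.091 on the wild-type and -1.03 to -0.15 on the null arrays. Several female-biased genes also belong to the PPAR, peroxisomal, CAR and PXR lists below, and over the 18 that do not, 16 were below 0, with a median of -0.49. Of the growth hormone and IGF axis, 18 genes had a median of 0.18, which was 0.30 on slide 1, -0.036 on slide 2 and 0.10 without null array 3, with 0.47 for Ghr, the growth hormone receptor, -0.099 for Stat5b and 0.27 for Igf1. Socs2, an inhibitor induced by growth hormone, had -1.95, 0.67 and -2.16 on the wild-type and 0.77, 1.16 and 0.59 on the null arrays, so the groups overlapped, and its second probe gave a difference of 0.050. Igfbp1, an IGF-binding protein that insulin represses, had -3.63, -2.23 and -3.30 on the wild-type and -5.92, -3.65 and -6.43 on the null arrays, a difference of -2.28 (SE 0.87, adjusted p = 1.00).

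The targets of PPARalpha and PPARgamma had mostly lower values in the null livers, with Cyp4a14 and Cyp4a10 farthest from 0. Of 25 measured PPARalpha targets and ketogenesis genes, 22 were below 0, with a median of -0.45, and none passed the threshold, while 9 were lower and 0 higher at an unadjusted p under 0.05, beside 1.33% and 1.23% of all genes. The groups did not overlap for 12 lower genes and 1 higher gene, beside 4.06% and 3.69% of all genes. Of 20 measured PPARgamma targets and lipid droplet proteins, 17 were below 0, with a median of -0.64, none passed and 9 did not overlap, all lower, beside 4.06% of all genes. The PPARalpha median was -0.61 on slide 1 and -0.69 on slide 2. It was -0.68 without null array 1, -0.40 without wild-type array 1 and -0.35 without null array 2. With arrays centred on their median in place of loess it was -0.31. The PPARgamma median was -0.76 on slide 1 and -0.44 on slide 2.

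Within the PPARalpha list the hydroxylase and thioesterase genes Cyp4a14, Cyp4a10, Acot1 and Acot4 had the smallest p, and then Vnn1, a pantetheinase (-2.17), Cyp4a31 (-1.33), Pex11a, a peroxisomal proliferation factor (-1.20), Acot3, another thioesterase (-0.74), and Fgf21, a hepatic hormone of fasting (-1.21). Ppara itself differed by -0.21, Cpt1a, which admits fatty acids to mitochondria, by 0.058 and Cyp4a12a, a male-biased member of the Cyp4a family, by 0.90. Of 18 mitochondrial fatty acid oxidation genes, 17 were below 0, and groups did not overlap for 2, both lower, beside 4.06% of all genes. Their median of -0.19 was -0.020 with arrays centred on their median in place of loess, and leaving out 1 high-fat array gave -0.33 to -0.20, with -0.32 without null array 2 and -0.33 without null array 3. Crat, carnitine acetyltransferase, had 1.27, 0.037 and 0.41 on the wild-type and -0.19, -1.29 and -0.48 on the null arrays, a difference of -1.23 (SE 0.42, adjusted p = 1.00). Of 18 peroxisomal genes, 13 were below 0, with a median of -0.23 that was -0.025 with median centring. They included Ech1, an enoyl-CoA isomerase, at -0.61 (SE 0.20, adjusted p = 1.00). Abcd2, a peroxisomal fatty acid transporter, was well above background on 3 of 3 wild-type and 0 of 3 null high-fat arrays, so its difference of -0.87 (SE 0.28, adjusted p = 1.00) rests on null values near background. Its other probe gave -0.52.

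In the lipid storage list, Plin4, a lipid droplet coat protein, had 0.069, -0.33 and -0.33 on the wild-type and -0.85, -1.57 and -2.43 on the null arrays, a difference of -1.42 (SE 0.51, adjusted p = 1.00). Plin5, which links droplets to mitochondria, differed by -0.68 (SE 0.26, adjusted p = 1.00), with -1.06 on slide 1 and -0.11 on slide 2. Cfd, complement factor D or adipsin, had 3.65, 0.50 and 2.52 on the wild-type and -0.094, -1.20 and -0.76 on the null arrays. It was well above background on all 3 wild-type and on 0 of 3 null high-fat arrays, so its difference of -2.91 (SE 1.17, adjusted p = 1.00) rests on null values near background. Cd36, a fatty acid transporter, differed by -1.57, Cidec, a droplet fusion protein, by -1.54, G0s2, an inhibitor of lipolysis, by -1.36 and Plin2, the main droplet protein of hepatocytes, by -0.59. Of 11 adipocyte markers 6 were measured, and 4 of these, among them Cfd and Cidec, also belong to other lists. The 6 had a median difference of -0.42, and the medians of their log2 ratios were -0.46 to 0.12 on the wild-type and -1.0 to -0.076 on the null arrays. The defining adipocyte genes Adipoq, Lep and Retn had probes that were well above background on 0 of the 6 high-fat arrays. In pooled liver, fewer cells of a type and less RNA per cell cannot be told apart.

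Fatty acid synthesis genes had a median near 0 whose sign turned when 1 array was left out, with lower values for a few enzymes. Of 21 genes of fatty acid synthesis, desaturation and elongation, 12 were below 0, with a median of -0.082, and groups did not overlap for 2, both lower, beside 4.06% of all genes. The median was -0.49 on slide 1, -0.17 on slide 2 and -0.35 with slide as a block. Leaving out 1 high-fat array gave -0.32 to 0.19, and it was above 0 without wild-type array 1 (0.19) or null array 2 (0.18). The genes that did not overlap were Scd1 and Me1, a malic enzyme that yields NADPH. Me1 had 0.33, -1.01 and -1.57 on the wild-type and -2.82, -3.25 and -3.64 on the null arrays, a difference of -2.49 (SE 0.57, adjusted p = 0.460), and its second probe gave -2.78. Elovl5, an elongase of polyunsaturated fatty acids, had 0.42, -1.05 and -0.59 on the wild-type and -1.98, -1.32 and -0.88 on the null arrays, which overlapped. Fasn, fatty acid synthase, differed by -0.82, Acaca, acetyl-CoA carboxylase, by -0.12, and Srebf1, their main transcription factor, by 0.39. In triglyceride assembly and lipolysis the median of 18 genes was -0.11, and -0.16 to -0.028 with 1 high-fat array left out. There Lpin2, a phosphatidate phosphatase, differed by -1.30 (SE 0.33, adjusted p = 0.720), and by -0.60 at its other probe. Abhd5, the coactivator of adipose triglyceride lipase, differed by 0.49 (SE 0.19, adjusted p = 1.00), and by 0.20 at its other probe.

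Cholesterol synthesis and uptake genes had mostly lower values, by more on slide 1 than on slide 2. Of 25 genes, 21 were below 0, with a median of -0.43, none passed, and groups did not overlap for 7, all lower, beside 4.06% of all genes. The median was -0.73 on slide 1 and -0.21 on slide 2, and it was -0.25 without wild-type array 1, which was the highest in this list. Hmgcs1, the cytosolic HMG-CoA synthase, had 1.74, 0.47 and 0.40 on the wild-type and -1.15, -0.83 and -0.45 on the null arrays, a difference of -1.68 (SE 0.32, adjusted p = 0.223), and its other probes gave -0.31 and -0.81. With Agilent's processed signals its sign turned, to 1.90 (adjusted p = 0.973), through 1 spot on null array 1 whose reference signal was 4700 over a background of 68.5 but was set to 20.1 in the processed column. Msmo1, a methylsterol oxidase, had 1.43, 1.21 and 1.35 on the wild-type and -0.14, 0.62 and 0.63 on the null arrays, a difference of -0.96 (SE 0.31, adjusted p = 1.00), and Hsd17b7, a sterol reductase, differed by -0.76 (SE 0.25, adjusted p = 1.00), and by -0.45 at its other probe. Srebf2, a transcription factor of sterol synthesis genes, differed by -0.50.

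Genes of xenobiotic metabolism under the receptors CAR and PXR also had mostly lower values. Of 20 measured, 18 were below 0, with a median of -0.46, none passed the threshold and groups did not overlap for 8, all lower, beside 4.06% of all genes. The median was -0.43 on slide 1 and -0.79 on slide 2, and it shrank to -0.21 when null array 2, the lowest in this list at -0.81, was left out. Cyp2b13 had 0.33, -0.33 and 0.55 on the wild-type and -0.47, -2.84 and -2.03 on the null arrays, a difference of -1.96 (SE 0.80, adjusted p = 1.00), and its other probe gave -0.47. Cyp2b10, a standard CAR target, differed by -0.64, Cyp3a11, a standard PXR target, by -1.10 and Nr1i3, which encodes CAR, by -0.61. Probes of Cyp2a, Cyp2b and Cyp3a genes can read near-identical neighbours. Of 26 glutathione transferase and NRF2 genes, 20 were below 0, with a median of -0.22 that turned to 0.042 when arrays were centred on their median in place of loess and was -0.13 without wild-type array 1, and Gstt2 differed by -0.64 (SE 0.19, adjusted p = 1.00). Of the 8 measured genes of the aryl hydrocarbon receptor pathway and Cyp1 family, 4 were above and 4 below 0 and all groups overlapped, with 0.069 for Cyp1a1 and 0.67 for Cyp1a2. Abcc3, a basolateral exporter of conjugates, had 0.95, 1.18 and 0.65 on the wild-type and -1.10, -0.18 and -2.47 on the null arrays, a difference of -2.17 (SE 0.56, adjusted p = 0.720), while its second probe gave -0.11.

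Complement and coagulation genes, most of which are made by hepatocytes and secreted, had mostly higher values in null livers. Of 34 measured, 29 were above 0, with a median of 0.31, 1 passed the threshold, C8b, and groups did not overlap for 9, all higher, of the 33 with a value on all 6 arrays, beside 3.69% of all genes. The median was 0.31 on slide 1 and 0.20 on slide 2. Other chains of the membrane attack complex were C8a (0.87), C8g (0.28), C9 (1.26), C6 (1.37) and Hc, complement component 5 (0.61). C1ra, a protease of the classical pathway, had 0.40, 0.17 and 0.29 on the wild-type and 0.79, 0.72 and 1.09 on the null arrays, a difference of 0.58 (SE 0.16, adjusted p = 1.00). C3 differed by -0.25 and Mbl2, a mannose-binding lectin, by -0.95. Of 22 acute phase genes, 15 were above 0, with a median of 0.33 that was 0.52 on slide 1, 0.014 on slide 2 and 0.53 without null array 2. Orm1, an acute phase glycoprotein, had -1.65, -1.51 and -0.89 on the wild-type and 0.22, -0.94 and -0.22 on the null arrays, and the groups overlapped.

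**Figure D3:**
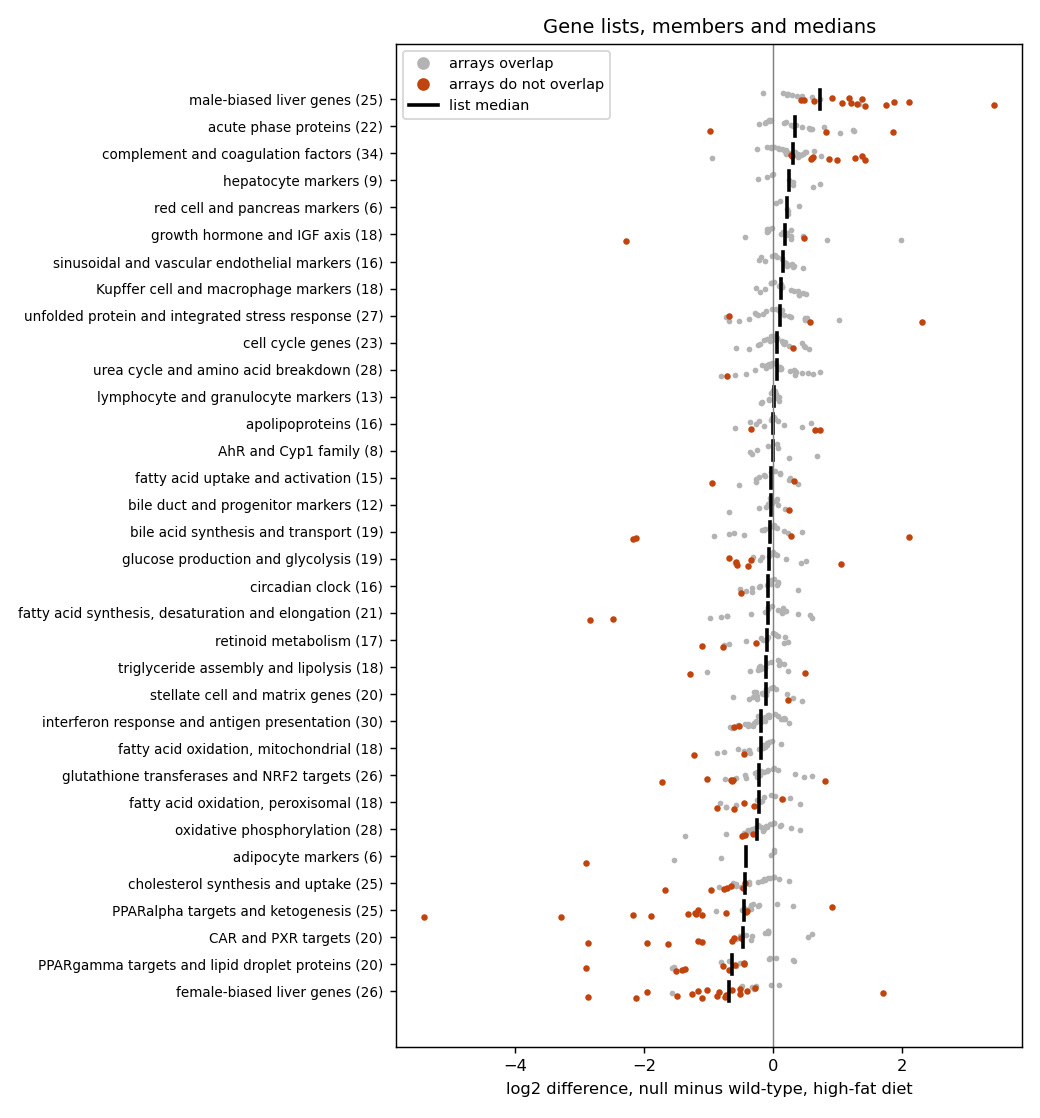
Difference between null and wild-type high-fat livers (x axis, log2) of each measured member of the 34 gene lists, with the number measured in brackets. Orange points are genes whose 3 null arrays do not overlap the 3 wild-type arrays, and black ticks are list medians. Genes that lack a value on a high-fat array, such as C6 and Phyh, are also drawn in orange, though their overlap was not judged. The medians run from -0.69 for female-biased genes to 0.73 for male-biased genes, and the lists were chosen with earlier results known and carry no test.

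Bile acid, apolipoprotein, retinoid, stress response and oxidative phosphorylation genes included single genes with larger differences. In bile acid synthesis and transport the median of 19 genes was -0.048, or -0.26 to 0.0079 with 1 high-fat array left out, with -0.69 for Cyp7a1, the rate-limiting enzyme, and -0.61 for Cyp8b1. Among apolipoproteins, Apom, a carrier of sphingosine phosphate, had -0.090, -0.20 and -0.13 on the wild-type and 0.69, 0.13 and 0.69 on the null arrays, a difference of 0.64 (SE 0.20, adjusted p = 1.00), and Apobec1, which edits Apob RNA, differed by 0.72 (SE 0.29, adjusted p = 1.00). Both had groups that did not overlap, but the other Apobec1 probe gave 0.048. Of 16 genes in the apolipoprotein list, 8 were above and 8 below 0, with a median of -0.0012. The groups did not overlap for 2 higher genes and 1 lower gene, Apoa2, beside 3.69% and 4.06% of all genes. Of 17 retinoid genes, 11 were below 0, with a median of -0.096 that was 0.096 with median centring. Those with the smallest p were Cyp26a1, the retinoic acid hydroxylase, at -0.78 (SE 0.27, adjusted p = 1.00), Rdh16, a retinol dehydrogenase, at -1.10 (SE 0.40, adjusted p = 1.00), and Aldh1a1, a retinaldehyde dehydrogenase, at -0.76 (SE 0.34, adjusted p = 1.00). Asns, asparagine synthetase of the integrated stress response, had -3.68, -1.41 and -2.64 on the wild-type and -1.005, 0.45 and -0.24 on the null arrays, a difference of 2.31 (SE 0.70, adjusted p = 1.00), while Sesn2, also of that response, differed by -0.54 (SE 0.24, adjusted p = 1.00), and by -0.023 at its other probe. The chaperone gene Pdia6 differed by 0.56 (SE 0.18, adjusted p = 1.00), and by 0.021 to 0.89 at its other 3 probes. Of 28 oxidative phosphorylation genes, 22 were below 0, with a median of -0.26 that was 0.0083 with median centring and -0.41 to -0.14 with 1 high-fat array left out, the lowest without null array 2 and the highest without wild-type array 2. There Cox4i1, a subunit of cytochrome oxidase, had -0.11, 0.31 and -0.73 on the wild-type and -2.05, -0.12 and -2.44 on the null arrays, so null arrays 1 and 3, on slide 1, were low and null array 2 was not. Cth, an enzyme of cysteine synthesis, differed by -0.72 (SE 0.26, adjusted p = 1.00), and Nfil3, a clock output repressor, by -0.50 (SE 0.23, adjusted p = 1.00).

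Markers of other liver cells were read on the same arrays. Of 18 measured Kupffer cell and macrophage markers, 13 were above 0, all with overlapping groups, and their median difference of 0.13 was 0.88 on slide 1, -0.059 on slide 2 and -0.095 without wild-type array 1. Their log2 ratios had medians of -1.18 to -0.29 on the wild-type and -0.93 to -0.17 on the null arrays. Cell cycle genes had a median difference of 0.059, with 0.61 on slide 1 and -0.47 on slide 2. Stellate and matrix genes had a median of -0.12, which was -0.31 without null array 1 and 0.12 without null array 2. Endothelial markers had a median of 0.15, which was 0.50 on slide 1, 0.11 on slide 2 and 0.050 to 0.37 with 1 high-fat array left out. The groups did not overlap for 1 of 20 stellate or matrix genes and 0 of 16 endothelial markers. They did not overlap for 0 of 18 Kupffer cell and macrophage markers either, beside 7.75% of all genes. The part of these cells in the values above was not tested.

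The last question was whether the genotype difference depended on the diet. Over all genes the difference between diets passed the threshold for 0 genes in limma, with 134 (0.898%) at an unadjusted p under 0.05, so no genotype difference was shown to be particular to the high-fat diet. The comparisons at each diet share no arrays, and they share the reference pool and the estimate of the spread. At low fat 3 genes passed (0.0201%), which were C8b and Moxd1, called at high fat too, and Cyp2a5. The genotype difference at low fat was -2.25 (SE 0.26) for Cyp2a5. It was -5.08 (SE 0.77) for Cyp4a14, -3.44 (SE 0.48) for Cyp4a10 and -1.26 (SE 0.27) for Gstt3, which did not pass. Scd1 had the smallest interaction p of all genes. Its genotype difference was -2.85 at high fat and 0.70 (SE 0.48) at low fat, where the groups overlapped, and the difference between diets was -3.55 (SE 0.67, unadjusted p = 0.000256, adjusted p = 1.00). Me1 differed by -2.49 at high fat and -0.082 (SE 0.57) at low fat (adjusted p of the interaction 1.00), and Hmgcs1 by -1.68 and -0.58 (SE 0.32). Nucb2 differed by 1.61 at high fat and 0.43 (SE 0.30) at low fat. The cholesterol list had a median of 0.15 at low fat, and the medians at low fat were -0.79 for PPARalpha targets, -0.62 for PPARgamma targets, 1.23 for male-biased and -0.81 for female-biased genes.

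**Figure D4:**
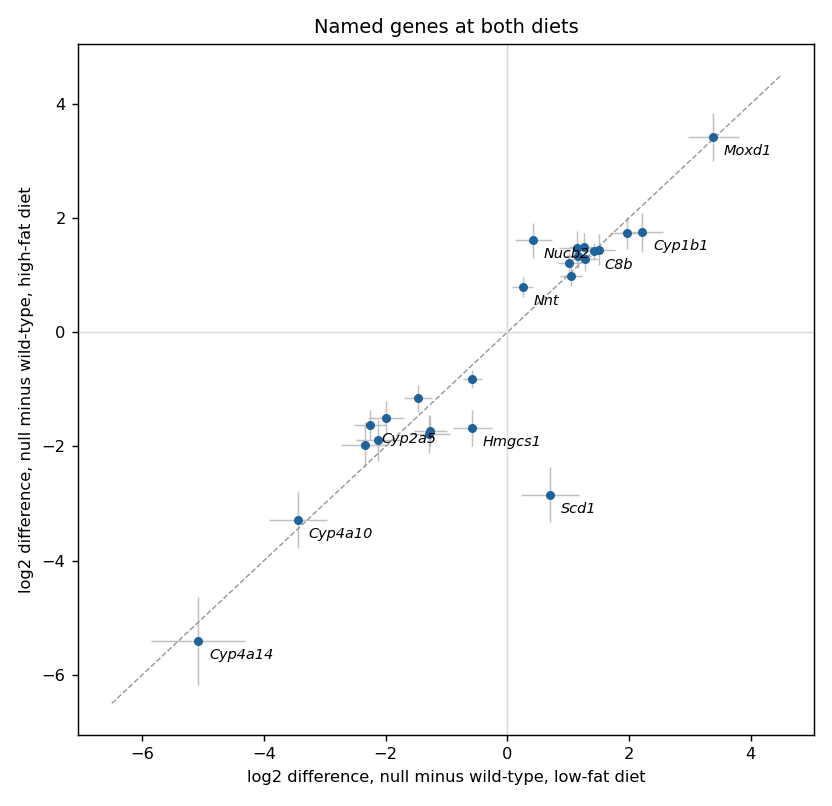
Genotype difference at low fat (x axis) against that at high fat (y axis), log2, for the genes with the smallest p at high fat, Cyp1b1 and Nnt; bars are standard errors and the dashed line marks equal differences. Scd1 lies apart from the line, with -2.85 at high fat and 0.70 at low fat, and the genes were chosen on the high-fat values.

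The number of genes called depended on how the spots were turned into ratios and on how the spread was estimated. Agilent's processed signals called 50 genes at high fat, 19 higher and 31 lower, the sample channel alone called 61 (26 higher, 35 lower), array weights 43 (25 higher, 18 lower), and slide as a random block 14 (8 higher, 6 lower). Of the 50 from processed signals, all 50 had the same sign in the values reported here, 49 were smaller, with a median size of 1.16 against 2.98, and 21 were not well above background on all 6 high-fat arrays. Cyp4a14 passed in 11 of 29 other settings, Cyp4a10 in 8 and Gstt3 in 6. In limma with trended and robust variance, and with arrays centred on their median or scaled to each other, 0 genes passed, with 358, 56 and 601 at an unadjusted p under 0.05.

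**Figure D5:**
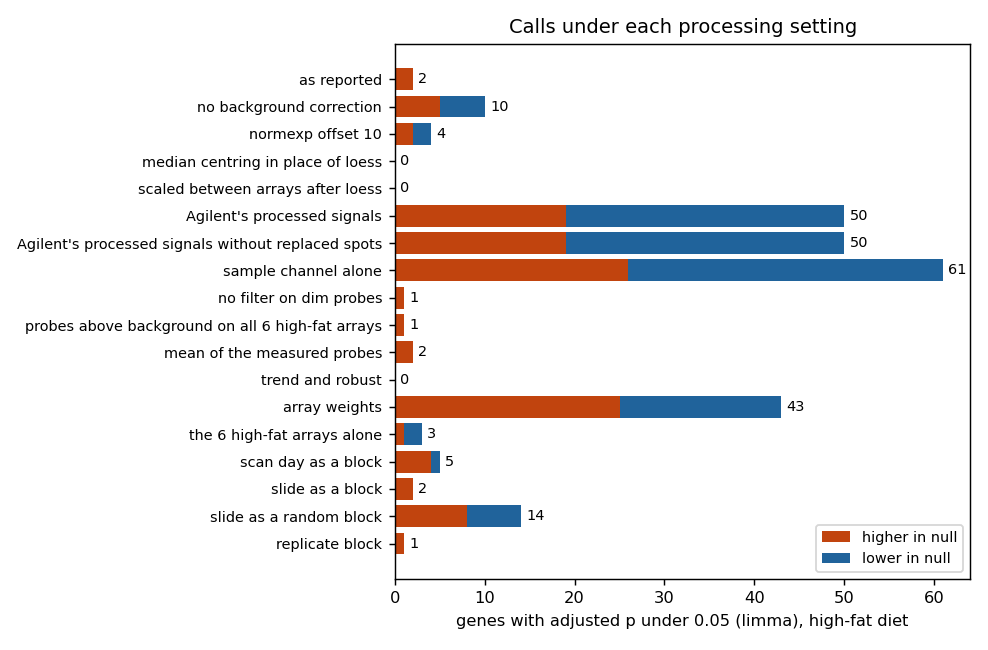
Number of genes past limma's adjusted p of 0.05 at high fat (x axis) as reported and under 17 other settings, split into genes higher (orange) and lower (blue) in null livers. The count was 2 as reported and ran from 0 to 61.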

How the data were processed

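The 12 two-colour Agilent arrays of liver RNA form 4 groups of 3 by the labels. The deposited intensity values are each spot's mean signal and median local background in both colours, from Feature Extraction 9.1.3.1, per the file headers. The software's processed intensity values, background-subtracted and dye-normalised, were deposited beside them, with log10 ratios of Cy5 over Cy3 made from those signals, per the file headers. The submitters' processing notes name limma without a version, and per the labels' protocols 1 of 2 labelling kits was used by RNA amount. 

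The mean signals were used with limma 3.58.1 (R 4.3.3): normexp background correction (offset 50), then loess within each array on log2 of Cy3 over Cy5, and no step between arrays. Spots marked as not uniform were left out. A probe counted as measured if any group had its sample channel well above background on each of its 3 arrays (21500 probes), and each of the 14919 genes took its brightest measured probe. Of 41174 probes, 24844 were named through accessions in the RefSeq gene table, 6045 matched a current and 1810 an older symbol, and the remaining 8475 are called as the files call them. In limma all 12 arrays were fitted with a mean for each group (degrees of freedom 8 residual, 3.15 prior), and p was adjusted by Benjamini-Hochberg. For 31 genes a value was missing on at least 1 array.

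The named genes were Cyp1b1, Nnt, those past the threshold, up to 12 a direction with the smallest p among groups that do not overlap and that have 1 sign on both slides, and up to 3 a list, narrowed to an unadjusted p under 0.05. Other list members were named after their values had been seen. Some list members are counted but not reported here by name. The members, the 34 lists and the tests were chosen with earlier results of these data known. On simulated data with 14888 genes, this comparison called 40.3% of the genes changed by 1 on the log2 scale, 83.6% by 2 and 97% by 4. The simulated spread was independent between arrays, with no slide effect. There 151 genes passed, against 2 in the data, so the adjusted threshold was easier to reach and these shares do not carry over. Alternatives covered the background correction, the normalisation, the filter, the probe rule, the variance model, slide, scan day, replicate number and each array left out. The authors' ratio table was not used.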

Additional observations from a re-analysis of the deposited data

How the results depend on the processing

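The count at high fat was 2, and at low fat 3. In the order high fat and low fat, it was 10 and 11 with no background correction, 4 and 5 with an offset of 10, 0 and 0 with median centring, 0 and 0 with scaling between arrays, 50 and 51 with processed signals, 50 and 51 without the replaced spots, an alternative chosen after seeing the data, and 61 and 49 with the sample channel alone. It was 1 and 1 with no filter on dim probes, 1 at high fat with probes above background on all 6 high-fat arrays, 0 and 0 with trended and robust variance, 43 at high fat with array weights, 3 with the 6 high-fat arrays alone, 5 and 14 with scan day as a block, 2 and 1 with slide as a block, and 14 at high fat with slide as a random block (correlation 0.388). Leaving out 1 array gave 0 to 5 at high fat and 1 to 26 at low fat. The interaction had 0 calls in each setting that gave it. C8b passed in 19 of 29 other settings and Moxd1 in 15 of 28. For both, the direction held in each. The Cyp1b1 difference passed at 2.57 with no background correction, 4.58 with processed signals, with or without the replaced spots, 2.60 with the sample channel alone and 1.64 with array weights, and was 1.51 to 2.02 with 1 array left out. The only named gene to turn its sign was Hmgcs1, at 1.90 with processed signals. Replicate numbers did not pair the arrays (median r of deviations of same-numbered arrays -0.015, range -0.58 to 0.57), and the replicate block called 1 gene at each diet. Array number and values near background limit the precision.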
